A study of Eutrema with 12 samples.

Results

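RD20 (Responsive to Desiccation 20) was represented on the arrays by 9 of the 13449 cDNA spots. It was 1 of 4279 cDNA identifiers, of which 28 were counted as carrying a gene name and 4251 a clone name. The 28 include FL5-2D23 and RAFL28-19G15, names for which no gene is given. The members of RD20 were all spots that carried that name, at every spot position, on all 12 arrays. The gene was selected on its field over cabinet ratios, with its higher ratios in 2003 already known, so these ratios and their difference between years are given as a description with no test.

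The arrays measured transcripts in cauline leaves, the leaves borne on the flowering stem, of Yukon Thellungiella (Thellungiella salsuginea), a salt-tolerant crucifer related to Arabidopsis. The field plants were sampled individually, without pooling, at a saline site in the Yukon, 3 in 2003 (A, B and C), a year of little rain before harvest, and 3 in 2005 (A, B and C), when rainfall was above the norm. The last plant of 2005 is called C in the sample records and D in the design text. Each was compared with cauline leaves of unstressed plants grown for 12 weeks in controlled environment cabinets, on 2 arrays that exchanged the Cy3 and Cy5 dyes. All plants were of the Yukon ecotype and the labels do not state how many cabinet plants were used or whether cabinet RNA was shared between arrays. Field mRNA was amplified before labelling and cabinet mRNA, by the sample records, was not, so that amplification and growth site cannot be told apart in any ratio. The tissue label could not be checked, since no name on the arrays was one of the leaf markers chosen (small subunit of Rubisco, chlorophyll-binding proteins and others). A ratio cannot tell apart fewer expressing cells and less RNA per cell.

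In Arabidopsis, RD20 encodes a caleosin, a calcium-binding protein of lipid droplet and endoplasmic reticulum membranes with peroxygenase activity. Its transcript is induced by dehydration, salt and abscisic acid (ABA), the hormone that plants make as they lose water and that closes stomata and switches on protective genes. ABA is made from carotenoids in the plastid and then in the cytosol, and part of the response to cold runs beside it, through the CBF (DREB1) transcription factors. RD20 is much used as a marker of the ABA-dependent branch of the drought response.

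RD20 ratios were above 0 in all 6 field plants and higher in the plants of 2003 than in those of 2005. In the log2 of field over cabinet signal, after background correction and normalization and averaged over the 2 dye-swapped arrays, plant A of 2003 had 2.74, plant B 3.12 and plant C 1.51. Plant A of 2005 had 1.29, plant B 0.82 and plant C 0.93. The plants of 2003 and 2005 did not overlap, although plant C of 2003 lay only 0.22 above plant A of 2005. As folds, these ratios were 6.69, 8.68 and 2.85 in 2003, and 2.45, 1.76 and 1.90 in 2005. The year means were 2.46 ± 0.842 (SD, n = 3) in 2003, a ratio of 5.49, and 1.01 ± 0.249 (SD, n = 3) in 2005, a ratio of 2.02. The difference, 2005 minus 2003, was -1.44 on the log2 scale, or 2.72-fold. Of all cDNAs, 34.8% had plants that did not overlap between the years in this ratio.

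**Figure D1:**
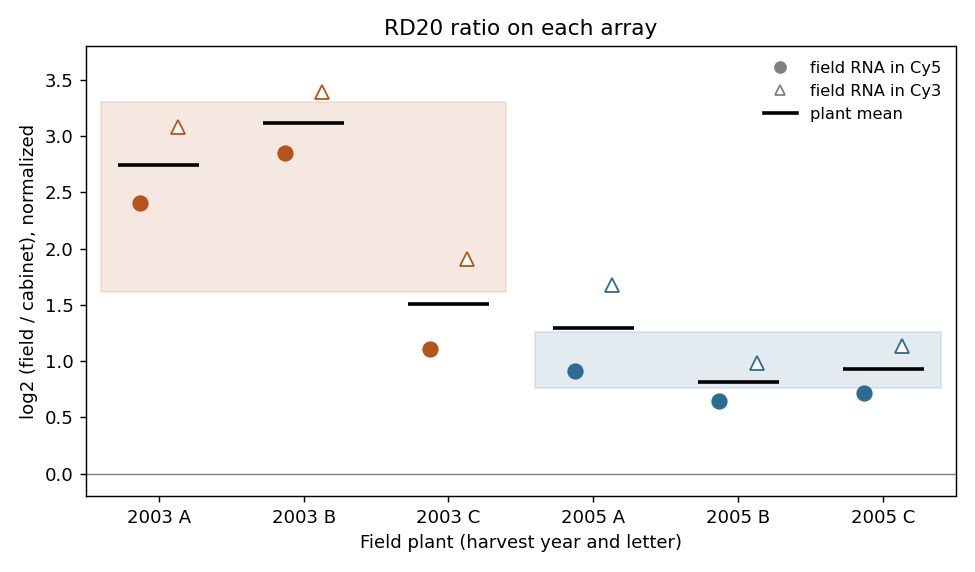
Normalized log2 ratio of field over cabinet for RD20 (vertical axis) in each field plant (horizontal axis), with the array that had the field RNA in Cy5 (filled circles) or in Cy3 (open triangles), the plant mean (black line) and the year mean ± SD over 3 plants (shaded). The 3 plants of 2003 have means from 1.51 to 3.12 and the 3 plants of 2005 from 0.82 to 1.29, and in each plant the triangle lies above the circle.

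The order of the plants, from the highest, was 2003 B, 2003 A, 2003 C, 2005 A, 2005 C and 2005 B. Set against the spread between the 2 arrays of a plant, neighbours in this order overlapped at every step but one. The lower array of 2003 A, at 2.41, lay above the higher array of 2003 C, at 1.91. Plant C of 2003 (1.11 and 1.91) and plant A of 2005 (0.91 and 1.67) overlapped, so the boundary between the years was not wider than the difference between the arrays of 1 plant. Within a single dye orientation the years did not overlap either. How many of all cDNAs did the same within 1 orientation was not counted, and for the plant means it was 34.8%. With the field RNA in Cy5, the plants of 2003 had 2.41, 2.85 and 1.11 and those of 2005 had 0.91, 0.65 and 0.72. With the field RNA in Cy3, they had 3.08, 3.39 and 1.91 in 2003 and 1.67, 0.98 and 1.14 in 2005.

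RD20 stood high among the cDNAs of the array in each plant. Its ratio lay at percentile 98.8 of 4279 cDNAs in plant A of 2003, 97.7 in plant B and 96.2 in plant C. In 2005 it lay at percentile 95.4 in plant A, 81.5 in plant B and 88.0 in plant C. By year mean it ranked 68 of 4279 in 2003 and 427 in 2005. By the difference between years it ranked 210 from the lowest, at percentile 4.88. The largest fold, in plant B of 2003, was not the highest rank, which was 52 in plant A. The 99th percentile of all cDNAs was 2.89 in plant A and 4.03 in plant B. The spread of RD20 between the plants of 2003 was wide for this array as well, since its SD of 0.842 lay at percentile 85.8 of all cDNAs, whose median SD was 0.375. In 2005 its SD of 0.249 lay at percentile 52.9, beside a median of 0.236.

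**Figure D2:**
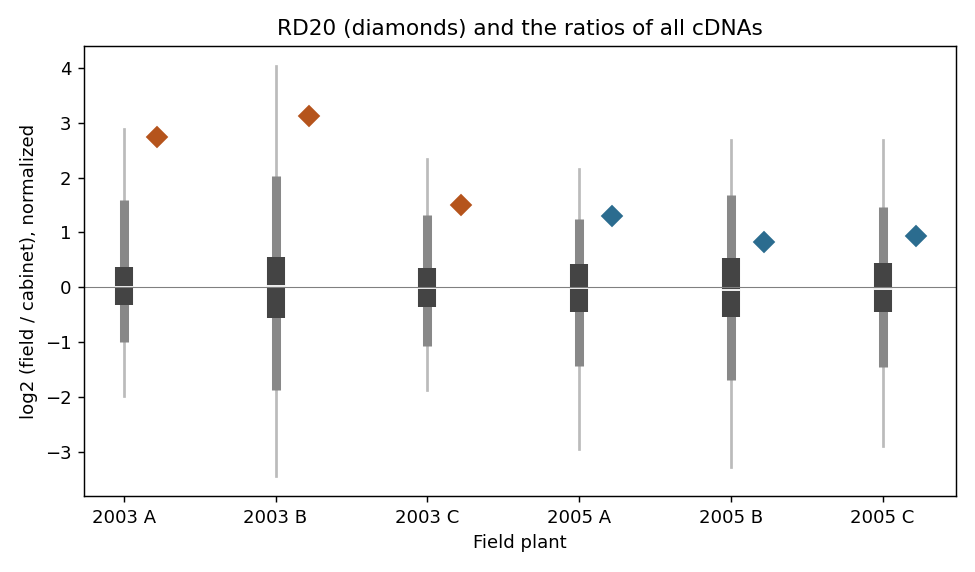
Normalized log2 ratio of field over cabinet (vertical axis) in each field plant (horizontal axis) for RD20 (diamonds, coloured by year) and for all 4279 cDNAs (thin bars from the 1st to the 99th percentile, medium bars from the 5th to the 95th, thick bars from the 25th to the 75th, white line at the median). RD20 lies above the 95th percentile in 2003 A, 2003 B, 2003 C and 2005 A, and below it in 2005 B and 2005 C.

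RD20 was read at 3 positions on the array, in different blocks, with 3 adjacent spots at each. Before any correction, the field channel of its 9 spots averaged 4459 to 14012 in scanner intensity and the cabinet channel 1144 to 8013, over the 12 arrays. These signals were 18.9 to 83.9 times the local background in the field channel and 3.54 to 43.1 times in the cabinet channel. The brightest RD20 spot read 26464, below the scanner's maximum of 65535, so that no RD20 spot was saturated. The arrays also held 87 nameless spots of undescribed content, here called unnamed spots, which were in the median 3.55 (field) and 3.68 (cabinet) times their background. On each array, all 9 RD20 spots were brighter in the cabinet channel than the median unnamed spot of that array. RD20 was therefore read above that level in cabinet plants too. The lowest cabinet signal, 3.54 times background, was in 2003 B with the field RNA in Cy3. The median unnamed spot of that array had 2.31, and that of all arrays 3.68. The same array had the highest RD20 ratio, 3.39. The other array of plant B of 2003, with a cabinet signal of 9.62 times background, had 2.85. How far the fold of this plant rests on the dim denominator was not tested.

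**Figure D3:**
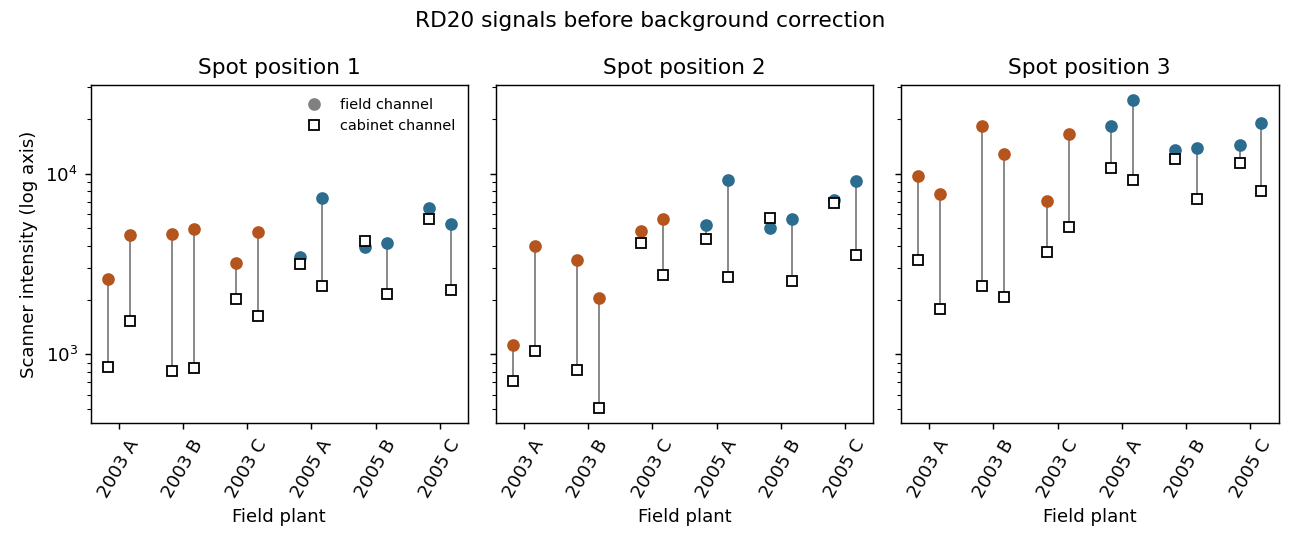
Scanner intensity before background correction (vertical log axis) at the 3 RD20 positions (panels), as the mean of 3 adjacent spots, in the field channel (filled circles, coloured by year) and the cabinet channel (open squares) of each array, with the plants on the horizontal axis and the array with the field RNA in Cy5 to the left of the other. The field channel is the brighter in 34 of 36 pairs, and both exceptions are in 2005 B with the field RNA in Cy5.

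Before these steps, background correction and normalization, 101 of 108 spot readings were brighter in the field channel. After them, all 108 were, from 0.46 to 3.78 on the log2 scale. Background correction and normalization together moved the RD20 mean of an array by -0.14 to 1.21. The uncorrected array means ran from -0.04, in 2005 B with the field RNA in Cy5, to 2.50, in 2003 B with the field RNA in Cy5. For that array of 2005 B, the field and cabinet signals were 7513 and 7316, and its normalized ratio was 0.65.

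The 3 positions gave the same direction in every plant. At position 1 the ratios were 2.84, 3.25 and 1.71 in plants A, B and C of 2003 and 1.29, 0.86 and 0.97 in those of 2005. Position 2 had 2.48, 2.88 and 1.08 in 2003 and 1.37, 0.88 and 0.92 in 2005. At position 3, they were 2.91, 3.23 and 1.74 in 2003 and 1.22, 0.71 and 0.89 in 2005. Position 2 was the lowest of the 3 positions in every plant of 2003 and in none of the 3 plants of 2005, and at position 2 alone plant C of 2003 lay below plant A of 2005. The difference between years was -1.56 at position 1, -1.09 at position 2 and -1.69 at position 3. Position 3 was the brightest, with a median of 3.46 times position 1 in the field channel and 3.01 times in the cabinet channel. Adjacent spots of a position differed little, with a median SD of 0.0474 on the log2 scale. The highest SD, 0.470, was at position 2 of 2003 A with the field RNA in Cy5. The SD of all 9 spots was 0.245 to 0.567 on the arrays of 2003 and 0.0805 to 0.183 on those of 2005. Spots of 1 array share its RNA and are not replicates of a plant.

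The dye used for the field RNA changed the RD20 ratio. The array with the field RNA in Cy5 read below the array with it in Cy3 in 6 of 6 plants. The differences, Cy5 minus Cy3, were -0.67, -0.54 and -0.79 in plants A, B and C of 2003 and -0.76, -0.33 and -0.42 in those of 2005. The mean of Cy5 minus Cy3 was -0.59 ± 0.187 (SD, n = 6), with p = 0.03125 in an exact two-sided sign-flip permutation test, the smallest that 6 plants can give. This was a large dye difference for the array, at percentile 98.4 of the absolute means of all cDNAs, whose median was 0.158. An additive dye effect on the log2 scale cancels in the mean of the 2 orientations, and each plant had both.

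The ratio has a cabinet reading as its denominator, and the 2 channels of RD20 differed in how they compared between the years. Each channel is given here relative to the median cDNA spot of that channel on the same array, on the log2 scale. The RD20 field level was 1.61, 1.53 and 0.61 in plants A, B and C of 2003, and 1.46, 1.10 and 1.44 in those of 2005, and the years overlapped. The means were 1.25 ± 0.557 (SD, n = 3) in 2003 and 1.33 ± 0.203 (SD, n = 3) in 2005, a difference of 0.08. Its sign rested on single plants, since it was -0.24 without plant C of 2003 and 0.26 without plant A of 2003. The RD20 cabinet level was -1.02, -1.57 and -0.87 on the arrays of plants A, B and C of 2003, and 0.03, 0.21 and 0.41 on those of 2005, with no overlap. Its means were -1.15 ± 0.367 (SD, n = 3) and 0.22 ± 0.193 (SD, n = 3), a difference of 1.37.

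Single channels carry differences between slides that a ratio removes. Of all cDNAs, 51.7% did not overlap between the years in the field level and 47.9% in the cabinet level. Across the 4279 cDNAs, which are not independent replicates and share the same arrays, the shift between years of the field level correlated with that of the cabinet level at r = 0.829. The RD20 cabinet shift lay at percentile 89.7 of all cDNAs and its field shift at percentile 55.6. Whether the cabinet RNA or the slides differed between the years cannot be told apart in these arrays, so the levels are a description of the signals.

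Of the other names on the array that belong to ABA, dehydration or cold response, 0 of 9 were called in 2003, where 17.4% of all cDNAs were, and 2 of 9 in 2005, where 31.5% were. A call was an adjusted p under 0.05 (limma, Benjamini-Hochberg over all cDNAs) with at least a 1.5-fold ratio. The 2 called in 2005 were COR15 and ZEP, both higher in field plants. The median log2 ratio of the 9 was 0.02 in 2003 and 0.05 in 2005, beside -0.00 and -0.03 over all cDNAs. For 2005 minus 2003, 0 of 9 were called, where 1.59% of all cDNAs were, and 1 of 9 had an unadjusted p under 0.05, as did 27.2% of all cDNAs. In 2003, 0 of 9 had an unadjusted p under 0.05, as did 37.3% of all cDNAs. Only ZEP of the 9 was brighter than the median unnamed spot in both channels, at 21.5 (field) and 18.5 (cabinet) times background. COR15 was brighter in the field channel (6.90) but not in the cabinet channel (3.58), and DEHYDRIN in the cabinet channel (3.87) but not in the field channel (3.32). The other 6 were brighter in neither channel.

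**Figure D4:**
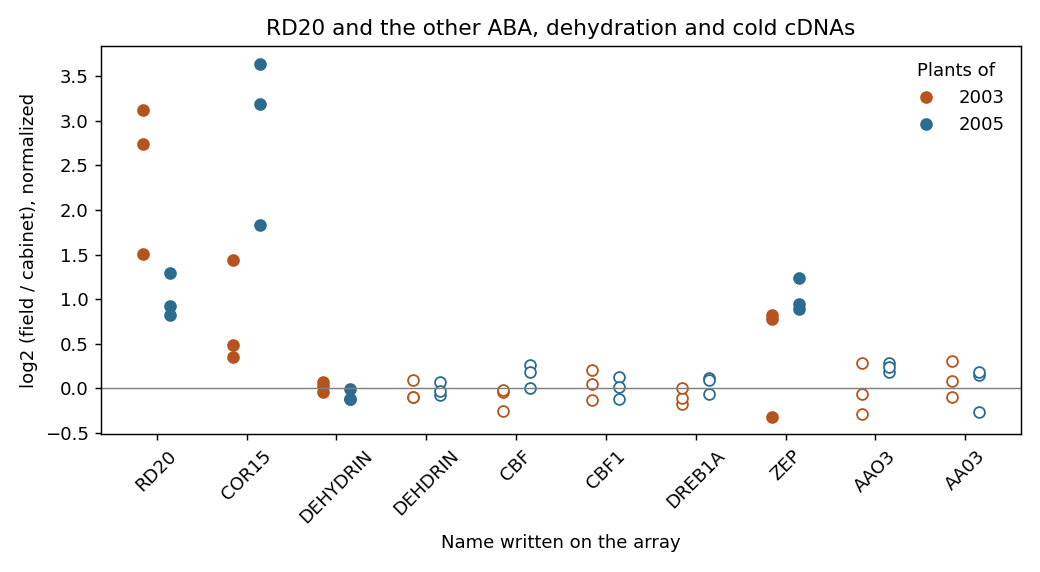
Normalized log2 ratio of field over cabinet (vertical axis) in each field plant of 2003 and of 2005 (points) for RD20 and the 9 other names of the ABA, dehydration and cold list (horizontal axis, spelled as on the array), with open points for names no brighter than the median unnamed spot in either channel. RD20 is higher in 2003 and COR15 higher in 2005 in every plant, where 34.8% of all cDNAs did not overlap between the years. The names with open points lie between -0.28 and 0.31.

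Among the genes for protective proteins, COR15, a chloroplast protein that stabilises membranes in the cold, had its higher ratios in 2005, where RD20 had its lower ones. Its log2 ratios were 1.44, 0.49 and 0.36 in plants A, B and C of 2003 and 3.19, 1.83 and 3.64 in those of 2005. Every plant of 2005 was above every plant of 2003, where 34.8% of all cDNAs did not overlap between the years in either direction. Since its cabinet signal was no brighter than the median unnamed spot, the sizes of these ratios rest on a denominator at that level, and how much of it was COR15 transcript was not tested. The mean in 2005 was 2.89 ± 0.371 (SE from the limma fit), with an adjusted p of 0.00351. In 2003 the mean was 0.76, with an adjusted p of 0.185. The difference, 2005 minus 2003, was 2.13 (SE 0.525), with an adjusted p of 0.0727 by limma. It was called by limma with the plant letter as a replicate block (adjusted p 0.0473), with 12 arrays as independent replicates (0.00187) and at an unadjusted p under 0.01. Under the other alternatives it was not called. The adjusted p was 0.102 to 0.185 without 1 plant and 0.100 with scan day as a random block. RD20 and COR15 are both induced by ABA in Arabidopsis, and whether the difference between years differed between them was not tested. DEHYDRIN, a name for late embryogenesis abundant proteins that protect cells from drying, had ratios from -0.12 to 0.07 in the 6 plants. DEHDRIN, spelled so on the array, had ratios from -0.10 to 0.10.

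Of the names for ABA synthesis, ZEP, zeaxanthin epoxidase of the plastid step and of the xanthophyll cycle, was higher in field plants of 2005. Its log2 ratios were -0.32, 0.77 and 0.82 in plants A, B and C of 2003 and 0.89, 1.24 and 0.94 in those of 2005. The mean in 2005 was 1.02 ± 0.242 (SE), with an adjusted p of 0.0201 by limma, and without any 1 plant of 2005 the adjusted p was 0.0705 to 0.116. In 2003 the mean was 0.42, with an adjusted p of 0.250, and without plant A of 2003 it was 0.80, with an adjusted p of 0.0355. The difference between years, 0.60, had an adjusted p of 0.306. AAO3, the abscisic aldehyde oxidase of the last step, had means of -0.02 in 2003 and 0.23 in 2005, and AA03, written with a zero on the array, had 0.10 and 0.02.

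The transcription factors of the cold pathway were read no brighter than the unnamed spots. Mean ratios in 2003 and 2005 were -0.10 and 0.15 for CBF, 0.04 and 0.01 for CBF1, and -0.09 and 0.05 for DREB1A.

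Of the 4 other stress and metabolism names and the 4 reference genes listed, 3 were called in a comparison. Of all cDNAs, 17.4% were called in 2003 and 31.5% in 2005. SPS, a name used for sucrose-phosphate synthase, was higher in field plants of 2005, at 1.18 with an adjusted p of 0.00318 by limma. TUBULIN, a cytoskeleton gene used as a reference, was lower in 2003, at -0.88 with an adjusted p of 0.0300. This call was lost by median centring (0.0544), without 2003 B (0.0747), without 2003 C (0.0541), without any 1 plant of 2005 (0.0510 to 0.0632) and with each year fitted alone (0.123). ACTIN2, another such gene, was lower in 2005, at -0.63 with an adjusted p of 0.0422, a call lost without 2003 C (0.0531), without any 1 plant of 2005 (0.124 to 0.167), with print-tip loess (0.0518) and with scaled arrays (0.0603). Of 10 further names in no list, 2 were called, FL5-2D23 in 2003 and RAFL28-19G15 in 2005, beside 17.4% and 31.5% of all cDNAs. RAFL28-19G15, named here after its values were seen, was higher, at 1.16 with an adjusted p of 0.00351 by limma, and the files do not give its gene.

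The cDNAs with the profile most like RD20 were clones. Likeness was the Euclidean distance between log2 ratios over the 6 plants, so that it counts both level and shape. The nearest were cld13_f11, at a distance of 0.943, and drt5_e09, at 0.979, and only these 2 of 4278 cDNAs lay within a distance of 1, where the median was 4.90. The means of cld13_f11 were 2.08 in 2003 and 0.91 in 2005, and those of drt5_e09 were 2.23 and 1.36. Over the 6 plants their Pearson correlations with RD20 were 0.940 and 0.895. This likeness is one of ratios and was not seen in the single channels. From 2003 to 2005 the field level shifted by -0.48 in cld13_f11 and -0.80 in drt5_e09, beside 0.08 in RD20. The cabinet level shifted by 0.56 and 0.004, beside 1.37 in RD20. A correlation above 0.9 was held by 239 cDNAs, or 5.59%, and by 0 of those with a gene name. All these values share the same 12 arrays and the same cabinet channel. The files do not pair these clones with genes.

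Among the cDNAs counted as gene-named the nearest was FL5-2D23, at a distance of 2.36 and a correlation of 0.807, though its gene is not given. Its ratios were 2.20, 1.41 and 1.17 in plants A, B and C of 2003 and 1.15, 0.03 and -0.33 in those of 2005. It thus shared with RD20 the higher values of 2003, while in 2005 only plant A stood clear of 0. From 2003 to 2005 its field level shifted by 0.17 and its cabinet level by 1.73, beside 0.08 and 1.37 for RD20. The FL5-2D23 mean of 1.59 in 2003 was called, at an adjusted p of 0.0208 by limma. Its mean of 0.28 in 2005 was not, at 0.519. The call of 2003 was lost with each year fitted alone, where 0 cDNAs were called in 2003. It was not followed under the other alternatives. ZEP, at a distance of 3.96, and SPS, at 4.03, came next, with correlations of -0.666 and -0.677, and they lay near RD20 in 2005 only. Their means of 2003, 0.42 and 0.22, were far below its 2.46, and the median distance of the cDNAs with a gene name was 4.51.

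**Figure D5:**
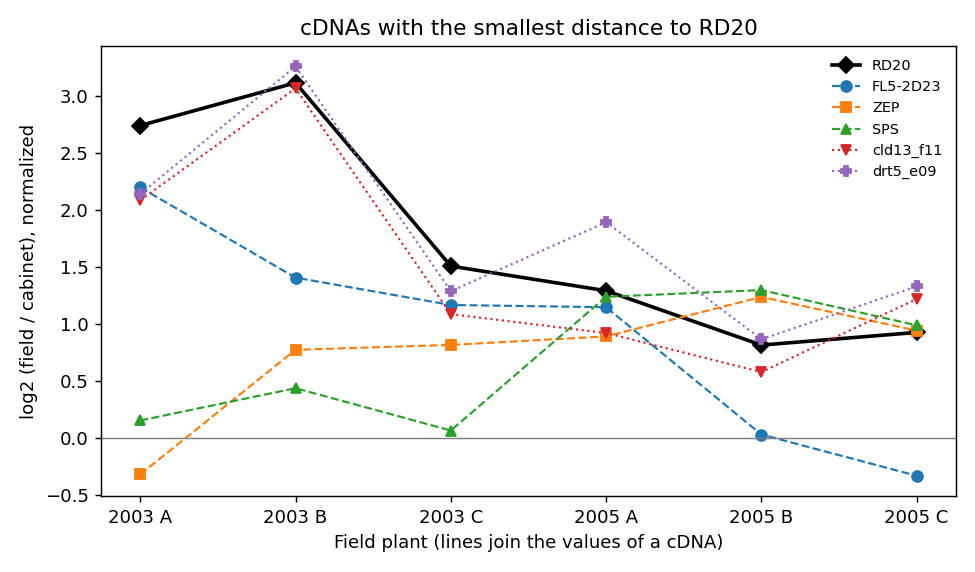
Normalized log2 ratio of field over cabinet (vertical axis) in each field plant (horizontal axis; lines join the values of 1 cDNA) for RD20, the 2 clones and the 3 cDNAs with a gene name that had the smallest distance to it. Both clones peak with RD20 in 2003 B, and ZEP and SPS lie below RD20 in all 3 plants of 2003.

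The number of plants, 3 in each year with 2 arrays each, limits the precision. Arrays of the same plant correlated over all cDNAs at r = 0.865 to 0.961, different plants at 0.552 to 0.696 within 2003 and 0.817 to 0.856 within 2005. Across the years the range was 0.242 to 0.632. The arrays were scanned on 4 days for 2003 and 2 days for 2005, with no day in common, so that scan day and year cannot be told apart.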

How the data were processed

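The authors deposited scanner tables with the linear intensity of each spot and its local background in both channels, not background-corrected or normalized. They also deposited processed values that behave as log10 ratios of field over cabinet, with a slope of 0.931 to 1.06 against the scanner log10 ratios and r = 0.933 to 0.992. The medians of their columns, in plant order with the field RNA in Cy5 and then Cy3, were -0.0188, -0.00559, 0.000594, 0.00164, -0.0180 and 0.000630 for 2003, and 0.0126, 0.0110, -0.000332, 0.00605, -0.00377 and -0.00121 for 2005. The columns were thus centred near 0, and no source used here gives their normalization. They served as an alternative.

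With limma 3.58.1 in R 4.3.3, intensities were corrected by normexp with an offset of 50 and normalized within arrays by loess, with control spots at weight 0. Each cDNA had the mean of its spots, and each plant, as 1 replicate, the mean of both its arrays. No spot was removed as dim, and saturated spots were kept. The fit had a mean per year and was checked on simulated data, for the calls of 2005 only. The simulated plants had independent noise with the same SD in both years. The check therefore does not cover a spread that differs between years. Calls needed an adjusted p under 0.05 and at least 1.5-fold. The study's Bayesian model was not repeated. RD20, the lists and the tests were chosen with earlier results of these data known. The genes named were RD20, the ABA, dehydration and cold list, genes of the other lists that were called, and the 3 gene-named cDNAs and 2 clones nearest to RD20.

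Plants that shared a letter deviated together from their year means over all cDNAs (r = 0.576 for A, 0.243 for B and 0.314 for C). For different letters, r was -0.331 to 0.0515. Deviations from a year mean cancel within the year, so the values for different letters are not an independent comparison. The letter was tried as a replicate block, and the labels do not say what it marks. Alternatives changed the background, normalization, spots, plants, dye orientation, blocks and thresholds. Field plants were separate individuals. Whether the cabinet samples were separate is not stated. In the main fit, p-values and SEs from limma rest on the spread between these plants, as 1 variance per cDNA. That variance was shared by both years and drawn towards the variance over all cDNAs, so it is not the spread of a single year. The median SD over all cDNAs was 0.375 in 2003 and 0.236 in 2005. The sign-flip test used only the dye differences of the plants.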

Additional observations from a re-analysis of the deposited data

Results flagged for a closer look

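CBF had ratios of opposite sign in 2003 and 2005, below 0 in all 3 plants of 2003 (-0.04, -0.01 and -0.26) and above 0 in all 3 of 2005 (0.01, 0.26 and 0.18). The difference was 0.25 on the log2 scale, with an adjusted p of 0.415 by limma, and CBF was no brighter than the unnamed spots.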

How the results depend on the processing

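Over the alternatives run, the RD20 ratio was 1.67 to 2.93 in 2003, 0.74 to 1.26 in 2005 and -1.92 to -0.93 for 2005 minus 2003. No direction changed, but RD20 was selected on these ratios. Every plant was above 0 and the years did not overlap, so leaving out 1 plant could not reverse a direction. Leaving out dim spots removed 0 spots. In 2005 the RD20 ratio was 0.76 with the field RNA in Cy5 only, 1.26 in Cy3 only and 0.74 with no normalization. The dye difference was -0.64 to -0.54 without 1 plant, with p = 0.0625 in the exact sign-flip test, the smallest 5 plants allow. The field level difference was 0.08, 0.62 at position 2 alone and -0.32 at position 1 alone; the cabinet level difference stayed between 1.14 and 1.58. Levels, single dye orientations, no normalization and the omission of plant A of both years were tried after seeing the data.

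Of the 9 other list genes, 0 to 1 were called in 2003 (ZEP) and 1 to 2 in 2005 when 1 plant was left out. For 2005 minus 2003, 1 was called with the replicate block, with 12 arrays as independent replicates and at an unadjusted p under 0.01, each time COR15. With 12 arrays 1 was called in 2003, COR15. The replicate block changed no other call of the list, while SPS passed for 2005 minus 2003 (adjusted p = 0.0467), as it did with no background correction, plain subtraction, scaled arrays and scan day as a random block (0.0397 to 0.0498), with 12 arrays (0.000814) and at an unadjusted p under 0.01. ACTIN2 in 2005 and TUBULIN in 2003 each kept their call in 12 of 20 alternatives. Of these, leaving out dim spots removed 0 spots and repeated the main fit, so it could not lose a call.

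Over all cDNAs, 68 were called for 2005 minus 2003, against 168 with no background correction, 146 with plain subtraction, 277 with scaled arrays, 127 in the deposited values, 353 with the replicate block, 420 with scan day as a random block, 1241 with 12 arrays and 468 at an unadjusted p under 0.01. Without 2003 A 7 were called, without 2003 C 158, and 0 without any 1 plant of 2005 or without A of both years. The 743 called in 2003 became 382 without 2003 B, 471 without 2005 A, 457 without 2005 C, 252 without A of both years, 1240 with 12 arrays and 0 with each year fitted alone. The 1349 called in 2005 became 734, 452 and 570 without 2005 A, B or C, and 760 without A of both years. The cause of these changes was not tested. The number of plants and the unnamed-spot level limit all these values.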
